A study of Mus musculus with 36 samples.

Results

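Growth hormone (GH) and the insulin-like growth factors (IGF) form the main endocrine axis of growth after birth, and short stature is a feature of X monosomy in women. The axis was examined here through 9 genes taken as a fixed set: the receptor Ghr, the transcription factor Stat5b, the feedback inhibitor Socs2, the growth factor Igf1, its receptor Igf1r, the acid-labile subunit Igfals and the binding proteins Igfbp2, Igfbp3 and Igfbp4. The array annotation named probes for 8 of the 9 genes and none for Stat5b, so 12 probes of the 28885 with normalised values from the authors were followed. Ghr and Igfbp4 had more than 1 probe each, as did Igf1r, and the other genes had a single probe.

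GH from the pituitary binds its receptor on liver and other cells, the receptor activates the kinase JAK2, and JAK2 phosphorylates STAT5B, which enters the nucleus and switches on Igf1, Igfals and Socs2. The liver is the main source of the IGF1 in blood. There it travels in a complex with IGFBP3 and the acid-labile subunit, while IGFBP2 and IGFBP4 carry smaller amounts. SOCS2 dampens the receptor, and mice that lack it overgrow.

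RNA was hybridised to 36 Illumina Mouse WG-6 arrays, 9 for each of liver, kidney, muscle and brain, from females aged 12 weeks of the random-bred MF1 stock carrying X chromosomes of a single progenitor. The XO pools (39 chromosomes) were of 2 kinds. XmO mice, with a maternal X, came from 40,XX mothers and 40,XPafY* fathers. XpO mice, with a paternal X, came from the same cross as the 40,XX controls, 40,In(X)1H/XPaf mothers with 40,XY fathers. There were 3 pools of each genotype with 2 to 3 mice in a pool, and the same pool numbers recur in the 4 tissues. The study counts 7 XX mice, whereas the sizes of its XX pools add up to 8. Because a genotype came from a single cross, an XmO to XpO difference cannot be told apart from one between crosses. XmO mice likewise came from another cross than XX mice, so XO minus XX values hold both genotype and cross for these pools, and XpO against XX is the comparison within a cross. Each array held whole tissue, so fewer cells of a type and less RNA per cell cannot be told apart.

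Values below are log2 signals, that is bead intensities normalised by quantiles across arrays. A difference of 1 is a 2-fold change, and differences are XO minus XX or XmO minus XpO. Array medians lay between 55.6 and 70.4 intensity units. The muscle array of XpO pool 3 was left out because its intensities did not follow the authors' values for it (rank correlation -0.0374), so muscle had 5 XO pools. Xist, the RNA of the inactive X, was lower in every XO pool than in every XX pool in all tissues (probe ILMN_2475156, differences of -5.12 in liver to -3.75 in muscle). The 5 defining markers of each labelled tissue were detected in it. In brain the arrays of XmO pool 2 and XX pool 3 stood apart, with median correlations to the other brain arrays of 0.971 and 0.983. Signal differences between probes also reflect the probes themselves, so levels were compared between tissues and pools but not between genes.

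Promoter windows (250 bases before to 50 after a start site, RefSeq, build GRCm38.p6) were searched for TTCNNNGAA, the core letters bound by STAT5 proteins. It reads the same on both strands, and no second motif was searched. It occurred in 2726 of 32851 windows (8.3%). The 8 genes of the axis with a window, Stat5b among them, had 13 windows, and 2 of these held it, both of Igfals. Socs2 had no window and was not searched. The receptor, the growth factor and both matching windows of the acid-labile subunit are shown, since their liver signals are the ones the results turn on. Capitals mark the match. A match is a run of letters and says nothing of binding in these mice.
Ghr, chr15:3583303-3583602, minus strand: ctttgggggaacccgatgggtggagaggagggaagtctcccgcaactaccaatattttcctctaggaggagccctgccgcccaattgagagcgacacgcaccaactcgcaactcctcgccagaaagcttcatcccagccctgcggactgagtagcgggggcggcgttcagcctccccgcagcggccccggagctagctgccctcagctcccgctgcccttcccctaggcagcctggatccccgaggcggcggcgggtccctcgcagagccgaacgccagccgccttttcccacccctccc
Igf1, chr10:87860861-87861160, plus strand: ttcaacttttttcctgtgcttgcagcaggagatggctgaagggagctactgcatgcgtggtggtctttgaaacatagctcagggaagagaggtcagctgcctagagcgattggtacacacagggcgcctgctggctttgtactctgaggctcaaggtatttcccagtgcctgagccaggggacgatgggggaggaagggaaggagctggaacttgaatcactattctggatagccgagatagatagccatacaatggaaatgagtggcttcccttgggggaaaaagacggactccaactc
Igfals, chr17:24877594-24877893, plus strand: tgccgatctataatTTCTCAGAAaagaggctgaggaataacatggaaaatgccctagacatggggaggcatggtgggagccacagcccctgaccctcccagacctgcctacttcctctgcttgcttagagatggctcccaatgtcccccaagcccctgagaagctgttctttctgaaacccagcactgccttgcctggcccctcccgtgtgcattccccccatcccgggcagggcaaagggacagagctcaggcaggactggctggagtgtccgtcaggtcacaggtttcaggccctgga
Igfals, chr17:24877981-24878280, plus strand: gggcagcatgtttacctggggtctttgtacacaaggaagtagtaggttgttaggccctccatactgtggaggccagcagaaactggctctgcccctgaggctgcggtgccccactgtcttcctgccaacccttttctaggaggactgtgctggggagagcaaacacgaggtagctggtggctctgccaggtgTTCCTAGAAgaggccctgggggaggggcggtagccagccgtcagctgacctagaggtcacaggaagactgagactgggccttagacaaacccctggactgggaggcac
The matches began at position -236 of the first Igfals window and at -58 of the second, counted from the annotated start site as 0. The windows shown for Ghr and Igf1 held no such run.

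Among the genes of the axis, Ghr passed the test between XO and XX mice, in liver and with one of its probes. Probe ILMN_1253504 read 12.80, 12.86 and 12.66 in the XmO pools and 12.94, 12.90 and 12.96 in the XpO pools, against 13.24, 13.24 and 13.21 in the XX pools. Every XO pool was below every XX pool, and the 3 XX pools were nearly alike. The mean was 12.85 ± 0.11 in XO (SD, n = 6) and 13.23 ± 0.019 in XX (n = 3), a difference of -0.38 (SE 0.075, 95% interval -0.54 to -0.21), or 0.771-fold (limma, Benjamini-Hochberg adjusted p = 0.027 over 19878 probes). Liver was the tissue with many calls: 5.7% of its probes passed the threshold (584 higher and 549 lower in XO, 1133 in all), and 15.2% had XO and XX pools that did not overlap. Of the 10 probes of the axis tested there, 1 passed and 1 did not overlap, the same probe. The liver count rested on single pools, and fell to 5 when XX pool 3 was left out and to 153 when XX pool 1 was. With XX pool 3 left out, then XX pool 1, then XmO pool 1, the Ghr difference was -0.39, -0.37 and -0.36 with adjusted p-values of 0.0966, 0.0611 and 0.0504. Without any other pool it stayed under 0.05. Within the shared cross, XpO pools alone against XX gave -0.30 (adjusted p = 0.144) and left 2 liver probes called in all, while XmO pools alone gave -0.45 (adjusted p = 0.0418). The call also depended on the scaling of the arrays. With the authors' normalised values the difference was -0.40 (limma adjusted p = 0.017), and with median scaling it was -0.15 (adjusted p = 0.452) and the groups overlapped, at 12.81, 12.92 and 12.56 in XmO, 13.06, 13.03 and 13.22 in XpO, against 13.02, 13.16 and 13.07 in XX. Median scaling moved the 751 liver probes above a log2 signal of 12 by a median of 0.23 towards higher XO values (0.00395 with quantiles), and 90.3% of its 1427 liver calls were higher in XO, compared with 51.5% of the 1133.

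The second Ghr probe, ILMN_1247348, was dimmer. In liver it read 8.92, 9.11 and 8.98 in XmO and 9.40, 9.29 and 9.34 in XpO, against 9.23, 9.38 and 9.69 in XX. The XmO pools lay below all the others, and the XpO pools lay within the XX range. The XO minus XX difference was -0.26 (SE 0.13, limma adjusted p = 0.212). The mean of both probes gave -0.32 (adjusted p = 0.0587). Mouse Ghr gives rise to the receptor and, by splicing, to a soluble GH-binding protein. The annotation used ties both Ghr probes to different transcript records, but does not say which of these products a probe reads.

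**Figure D1:**
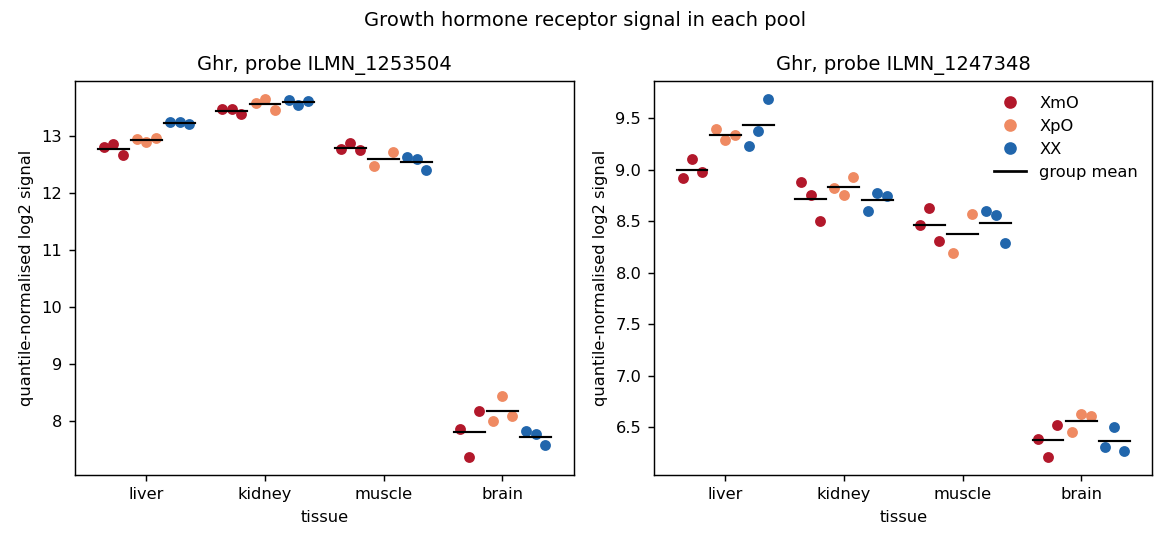
Quantile-normalised log2 signal (vertical axis) of both Ghr probes in each pool of XmO, XpO and XX mice (points) in 4 tissues (horizontal axis), with group means as bars. For probe ILMN_1253504 the 6 XO liver pools sit between 12.66 and 12.96, below the XX pools at 13.21 to 13.24, while XO and XX points overlap in the other tissues.

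Outside liver the same Ghr probe did not pass. In kidney the levels were 13.47, 13.48 and 13.39 in XmO and 13.58, 13.65 and 13.45 in XpO, against 13.64, 13.55 and 13.61 in XX (difference -0.099, limma adjusted p = 0.535). In muscle they were 12.77, 12.87 and 12.75 in XmO and 12.48 and 12.72 in XpO, against 12.64, 12.60 and 12.40 in XX (difference 0.17, adjusted p = 0.418). In brain they were 7.87, 7.38 and 8.19 in XmO and 8.0, 8.44 and 8.09 in XpO, against 7.83, 7.78 and 7.59 in XX (difference 0.26, adjusted p = 1). XO and XX pools overlapped in all 3 tissues. The liver effect was set against each of these within the numbered pools. It was lower than that in muscle by -0.57 (SE 0.13, limma adjusted p = 0.0284), in a comparison where 8.5% of probes passed. In muscle the Ghr signal and the summed adipocyte signal (Adipoq, Lep, Plin1 and Retn) put the 8 pools in the same order. The sums were 7276, 11303 and 7121 in XmO and 3824 and 6656 in XpO, against 5594, 5412 and 3265 in XX, with XX pool 3 lowest and XmO pool 2 highest in both measures. The part of fat in the muscle Ghr values, and so in this difference between tissues, was not tested. With median scaling the difference was -0.51 (adjusted p = 0.0797). Leaving out any one of the 3 XX or 3 XmO pools gave adjusted p-values of 0.0528 to 0.106, with the difference between -0.50 and -0.61. Against kidney it was -0.28 (adjusted p = 0.183, 0.0695% of probes passed) and against brain -0.64 (adjusted p = 0.221). In the brain comparison 0 of 18108 probes passed in limma (0%), with 2684 at an unadjusted p under 0.05.

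Cell type markers in liver were set beside the Ghr call. The summed hepatocyte signal (Alb, Apoa1, Ttr, Cps1 and Tat, all detected) was 93033 to 95701 in XmO, 89894 to 92490 in XpO and 87268 to 91826 in XX. Its Ttr, the thyroid hormone carrier transthyretin, was higher in XO (0.31, limma adjusted p = 0.0368, lost in 7 of 9 fits with 1 pool left out). The Kupffer and sinusoid list (4 of 5 genes, with no probe named here for Cd5l) gave 3455 to 3887 in XmO, 3548 to 3726 in XpO and 3330 to 3975 in XX. The leukocyte list (Cd74, Cd3e and Lyz2, with no probe named here for Ptprc and Cd79a) had a lower sum in XO liver. It was 2286 to 2390 in XmO and 2296 to 2572 in XpO, against 2656 to 3368 in XX. Of the 4 probes of this list, 1 was on average higher in XO, so the sum does not speak for each gene of the list. Both probes of Cd74, the invariant chain of MHC class II, passed the threshold (-0.54 and -0.40, limma adjusted p = 0.0179 and 0.039, and 0.0848 and 0.159 without XX pool 3). The stellate and fibroblast list gave 15926 to 17161 in XmO, 14929 to 16742 in XpO and 14475 to 15724 in XX, with Col3a1 lower (-0.63, limma adjusted p = 0.0336) and 2 of 5 detected Dcn probes higher (0.34 and 0.26) in XO. The mean of the Dcn probes was at 0.048 (adjusted p = 0.614). With 1 pool left out at a time these Dcn calls were lost in 7 and 8 of 9 fits. The Col3a1 call was lost in 4 of 9 and with the authors' values (-0.23, adjusted p = 0.0522). The red cell list (3 of 4 genes) gave 7265 to 8648 in XmO, 7717 to 11742 in XpO and 9308 to 11187 in XX. XmO lay below XX, XpO overlapped XX, and 0 of 3 probes passed in limma. The part of these cell types in the Ghr difference was not tested.

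Socs2, induced by GH through STAT5 and a brake on the receptor, was on average higher in XO liver but did not pass. It read 12.34, 12.55 and 12.70 in XmO and 12.45, 12.58 and 12.07 in XpO, against 12.40, 11.91 and 11.91 in XX. A single XX pool lay among the XO pools. The difference was 0.38 (SE 0.14, 95% interval 0.073 to 0.68, limma adjusted p = 0.114). With median scaling it was 0.61 (adjusted p = 0.0132), so this probe passed under the scaling in which Ghr did not. Cish, a second STAT5 target that feeds back on the receptor, had 10.31, 10.99 and 10.81 in XmO and 11.01, 10.90 and 9.88 in XpO, against 11.23, 9.01 and 9.94 in XX (difference 0.59, adjusted p = 0.34). XX pool 1 was the highest XX pool for both genes. In kidney, muscle and brain the Socs2 differences were 0.014, 0.081 and -0.15, with adjusted p-values of 0.972, 0.809 and 1.

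Igf1 in liver did not pass between XO and XX pools. It read 12.30, 12.30 and 12.39 in XmO and 12.60, 12.49 and 12.64 in XpO, against 12.48, 12.53 and 12.51 in XX. Every XmO pool lay below every XX pool, and the XpO pools lay within or above the XX range. The XO minus XX difference was -0.056 (95% interval -0.25 to 0.13, limma adjusted p = 0.716), and its sign turned with median scaling (0.16, adjusted p = 0.454). Under that scaling the pools read 12.23, 12.29 and 12.29 in XmO and 12.69, 12.57 and 12.85 in XpO, against 12.24, 12.38 and 12.35 in XX, so that XmO overlapped XX and every XpO pool lay above every XX pool. In kidney Igf1 had 8.24, 7.99 and 8.02 in XmO and 8.12, 8.08 and 8.47 in XpO, against 8.10, 8.52 and 8.80 in XX (difference -0.32, SE 0.14, adjusted p = 0.356, and -0.51 and -0.16 without XX pool 1 and XX pool 3). In muscle it had 9.46, 9.86 and 9.59 in XmO and 9.63 and 9.46 in XpO, against 9.77, 9.93 and 9.77 in XX (difference -0.22, SE 0.097, adjusted p = 0.299). Both had an unadjusted p under 0.05 and overlapping groups. In brain the difference was -0.087 (adjusted p = 1).

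The kidney pools differed in fat. The summed adipocyte signal (Adipoq, Plin1 and Lep detected, Retn not, and no probe named here for Cfd) was 257, 1298 and 225 in XmO and 1036, 898 and 2106 in XpO, against 1125, 3696 and 3432 in XX. XX pools 2 and 3 had both the highest adipocyte sums and the highest Igf1 signals, and XpO pool 3 came next in both. The remaining pools did not follow one order. XmO pool 2 had the lowest Igf1 signal (7.99) with a sum of 1298, and XmO pool 1 had 8.24 with a sum of 257. Adipocytes also express Igf1. The part of fat in the kidney Igf1 values was not tested.

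Igf1r, the receptor tyrosine kinase that IGF1 acts through, had 3 probes. In kidney each was on average higher in XO, by 0.14 (ILMN_1217763), 0.22 (ILMN_1239663) and 0.24 (ILMN_1249824), with limma adjusted p-values of 0.326, 0.308 and 0.315. The brightest of them, ILMN_1249824, read 9.86, 10.03 and 10.04 in XmO and 9.72, 10.14 and 10.02 in XpO, against 9.89, 9.58 and 9.72 in XX. The groups overlapped. These probes read the same gene and are not separate evidence. In muscle the same probe was lower on average, with 8.20, 8.08 and 8.30 in XmO and 8.02 and 8.37 in XpO, against 8.57, 8.34 and 8.36 in XX (difference -0.23, adjusted p = 0.289), whereas ILMN_1217763 gave 0.10 and ILMN_1239663 gave -0.11. In liver ILMN_1249824 was 7.27 ± 0.092 in XO and 7.15 ± 0.097 in XX (SD, n = 6 and 3, adjusted p = 0.325), and the other probes were not counted as detected there.

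Igfals, the acid-labile subunit made by hepatocytes, read 12.97, 13.14 and 13.02 in XmO liver and 13.33, 13.41 and 13.31 in XpO liver, against 13.32, 13.26 and 13.23 in XX liver. As with Igf1, the XmO pools were below all the others. The joint XO minus XX difference was -0.075 (95% interval -0.29 to 0.14, limma adjusted p = 0.656), with the sign turned under median scaling (0.16). Under that scaling Igfals read 12.98, 13.19 and 12.99 in XmO and 13.45, 13.56 and 13.55 in XpO, against 13.13, 13.17 and 13.09 in XX. XmO then overlapped XX, and XpO lay above all XX pools. In kidney it was -0.21 (adjusted p = 0.427) and in muscle 0.21 (adjusted p = 0.607).

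The binding proteins did not pass in any tissue. Igfbp3, the main carrier of IGF1 in blood, had 8.56, 8.85 and 8.61 in XmO liver and 8.0, 8.34 and 8.43 in XpO liver, against 8.26, 9.13 and 8.89 in XX liver (difference -0.30, SE 0.19, limma adjusted p = 0.339). The groups overlapped, with XX pool 1 far below the other XX pools, and leaving out that pool or XX pool 2 gave -0.55 and -0.11. Igfbp2 had differences of -0.042 in liver, -0.30 in kidney and -0.25 in brain (adjusted p = 0.818, 0.401 and 1), and the liver sign turned with median scaling (0.12). Igfbp4, which is cut by the protease PAPP-A to release IGF, had a liver difference of 0.17 with probe ILMN_1258988 (SE 0.077, adjusted p = 0.172) and 0.040 with ILMN_1239075. With median scaling the first of these passed (0.39, adjusted p = 0.0113). In brain the Igfbp4 probes had the widest spread of the axis, with SDs over XO pools of 0.63 and 0.60, and XmO pool 2, which stood apart, was lowest for both (7.42 and 8.33).

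**Figure D2:**
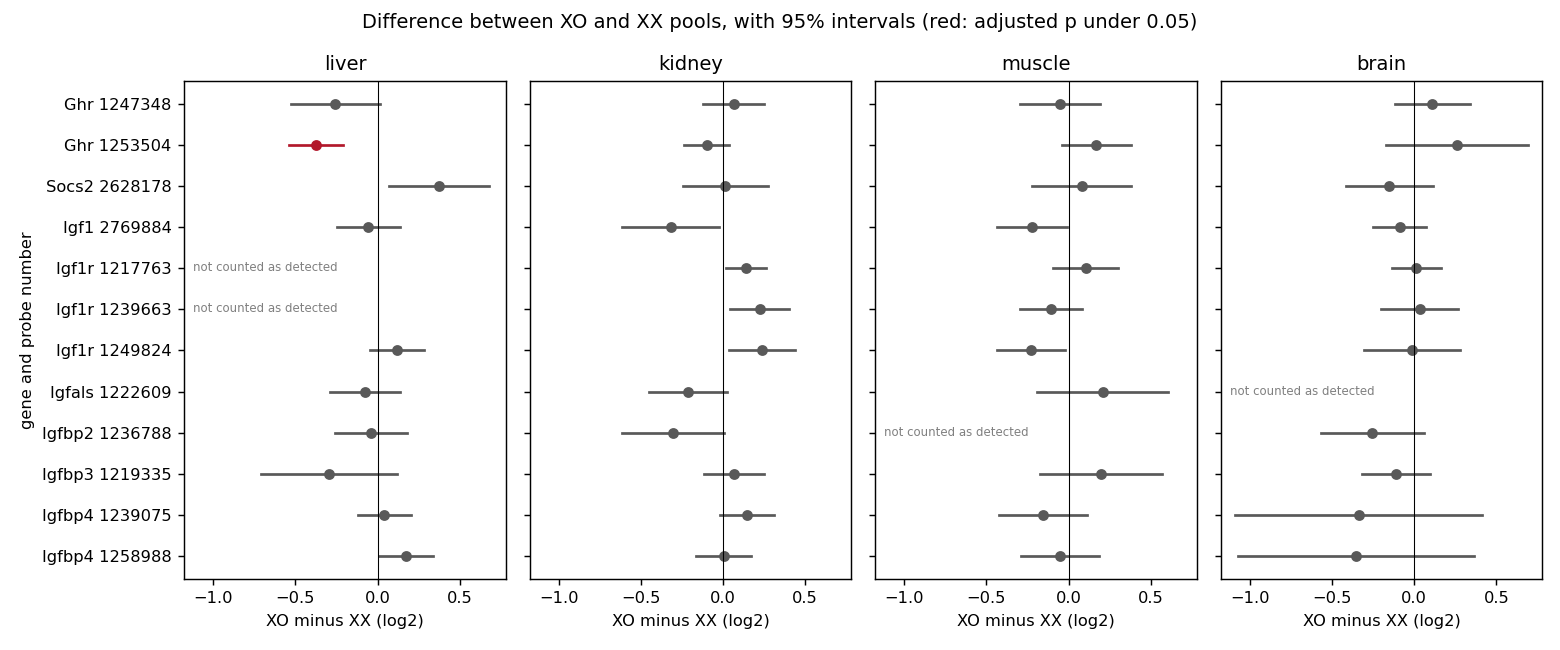
Difference between XO and XX pools on the log2 scale (horizontal axis) for the 12 probes of the axis (vertical axis) in each tissue, with points for limma estimates and lines for 95% intervals. The Ghr probe ILMN_1253504 in liver, at -0.38, is the one red point, with an adjusted p under 0.05.

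Counted by tissue, 1 of 10 liver probes, 0 of 12 kidney probes, 0 of 11 muscle probes and 0 of 11 brain probes passed. At an unadjusted p under 0.05 there were 3 in liver (5219 of 19878 for all probes), 4 in kidney (3006 of 23417), 2 in muscle (3381 of 21810) and 0 in brain (667 of 24863). In the same tests 0.047% of all probes passed in kidney (11 of 23417), 0.00917% in muscle (2 of 21810) and 0.00402% in brain (1 of 24863). XO and XX pools did not overlap for 0 probes of the axis in these 3 tissues, where 5.58%, 10.8% and 1.61% of all probes did not. The median difference of the axis was -0.049 in liver (0.0053 for all probes tested), 0.040 in kidney (0.0047), -0.051 in muscle (-0.0034) and -0.087 in brain (-0.0017).

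No probe of the axis passed between the 2 kinds of XO pool in liver, although the pools of several did not overlap. XmO was lower than XpO in every pool for Igf1 (-0.25, SE 0.074, unadjusted p = 0.00634, limma adjusted p = 0.353), Igfals (-0.30, SE 0.076, unadjusted p = 0.00191, adjusted p = 0.257) and both Ghr probes (-0.16 and -0.34, adjusted p = 0.522 and 0.396). XmO was higher in every pool for Igfbp2 (0.22) and Igfbp3 (0.42, adjusted p = 0.515 each). So 6 of 10 probes did not overlap, where 17.2% of all liver probes did not and 0.0503% passed. Median scaling was not run for XmO against XpO. The 3 XmO pools set against the 3 XX pools alone gave -0.18 for Igf1 (adjusted p = 0.185) and -0.23 for Igfals (0.13). The 3 XpO pools gave 0.068 for Igf1 (0.683) and 0.077 for Igfals (0.627). The XmO and XpO values against XX share the XX pools.

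**Figure D3:**
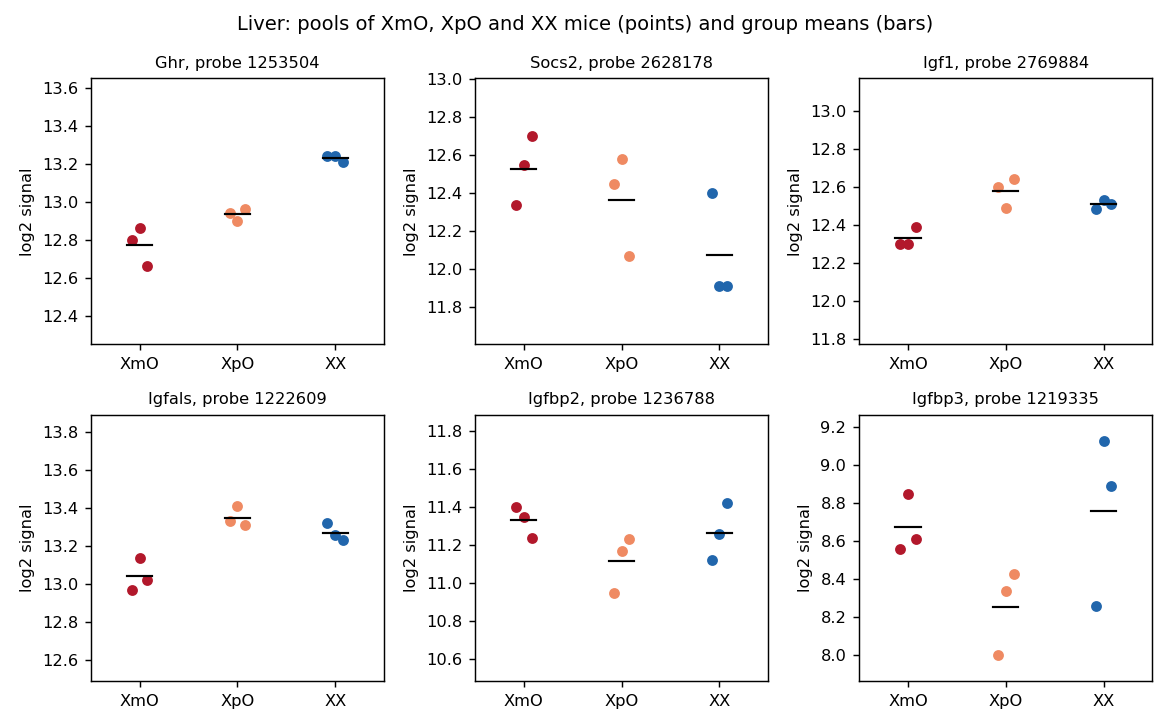
Log2 signal (vertical axis, 1.4 units in each panel) of 6 genes of the axis in each liver pool of XmO, XpO and XX mice (horizontal axis), with group means as bars. For Ghr, shown with the probe that passed, both kinds of XO pool lie below XX. For Igf1 and Igfals the XmO pools lie lowest and the XpO pools within or above the XX range. With median scaling these positions change for all 3 genes, and the XpO and XX pools overlap for Ghr.

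In the other tissues 0 of 12, 0 of 11 and 0 of 11 probes passed between XmO and XpO in kidney, muscle and brain (limma), with 0.0897%, 0.0138% and 0.0161% of all probes past the threshold. Igfbp2 in kidney was higher in every XmO pool (6.20, 6.44 and 6.34) than in the XpO pools (5.64, 5.96 and 6.07), by 0.44 (SE 0.11, adjusted p = 0.174), but these signals lie close to the level of undetected probes. Both Igfbp4 probes were higher in the 3 XmO than in the 2 XpO muscle pools (0.34 and 0.32, adjusted p = 0.438 and 0.382). So was Ghr probe ILMN_1253504 (0.20, adjusted p = 0.628). The summed adipocyte signal of these muscle pools did not overlap either, at 7121 to 11303 in XmO and 3824 to 6656 in XpO. Its part in these differences was not tested. Probes without overlap numbered 2 of 12 in kidney, 3 of 11 in muscle and 2 of 11 in brain, where 17.9%, 27.6% and 18% of all probes had none. In kidney Igfals was also lower in XmO than in XpO on average (-0.26, adjusted p = 0.371), as was Socs2 (-0.29, adjusted p = 0.355).

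Across tissues most genes of the axis were brightest in liver or kidney. Igf1 was highest in liver (12.47 ± 0.12, SD over 9 pools), followed by muscle (9.68 ± 0.18, n = 8), kidney (8.26 ± 0.28) and brain (6.72 ± 0.095). Igfals followed from liver (13.22) to kidney (10.83) and muscle (7.91), and had no values in brain. Igfbp2 was highest in liver (11.24), then brain (7.91) and kidney (6.21), and was not counted as detected in muscle. Igfbp4 was also brightest in liver and dimmest in brain with both probes (12.84 and 13.78 in liver, 8.47 and 9.34 in brain). Igfbp3 (10.32) and Igf1r (9.89 with ILMN_1249824) were highest in kidney. Igf1r was lowest in liver with all 3 probes, and the liver level of ILMN_1249824 was 7.23.

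The receptor Ghr with probe ILMN_1253504 was at 13.54 in kidney, 12.98 in liver, 12.65 in muscle and 7.91 in brain, and the other probe had liver first (9.26) and kidney second (8.75). With median scaling this probe too had kidney before liver, and its order also changed with the authors' values, so the opposite order of liver and kidney for the 2 Ghr probes holds under the quantile scaling used here and with normexp. Socs2 was nearly level between liver (12.32) and kidney (12.15), and these did not differ beyond their spread (limma with pools as a block, difference 0.18, adjusted p = 0.103). Muscle and brain were likewise not separated for Igf1r probes ILMN_1217763 and ILMN_1239663 (adjusted p = 0.898 and 0.145). All other neighbours in these orders passed. Such differences were common, since 67.2% to 82.5% of all probes passed between a pair of tissues. Probes that the authors counted as detected in no tissue had a median log2 signal of 5.69 with the 95th percentile at 5.9, and the dimmest signals of the axis lie near it.

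**Figure D4:**
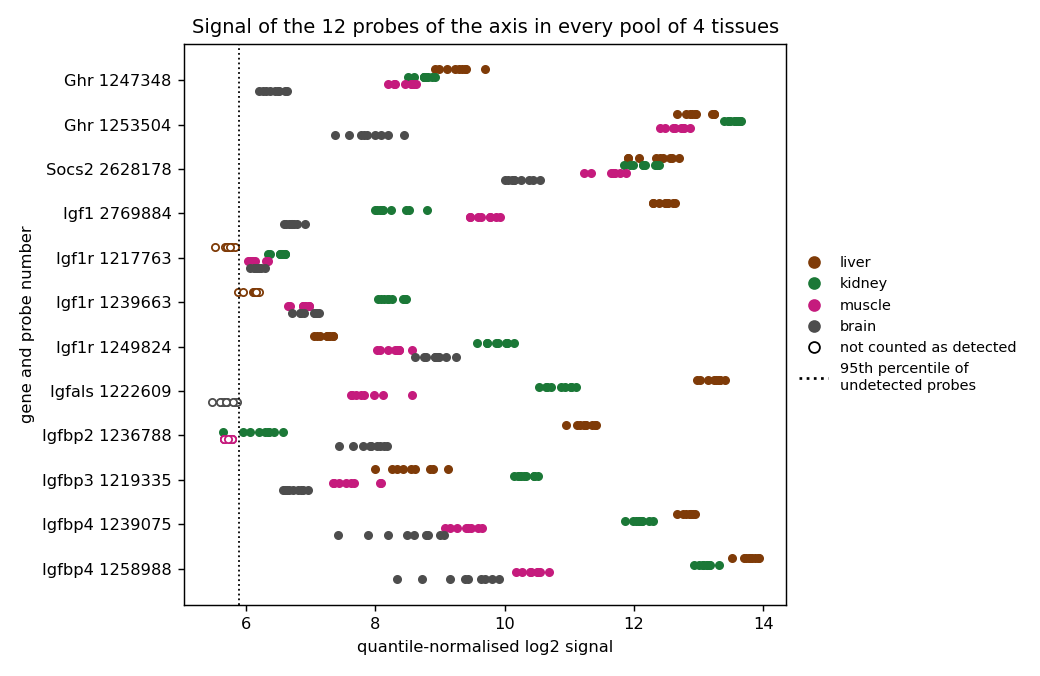
Log2 signal (horizontal axis) of the 12 probes of the axis (vertical axis) in every pool, coloured by tissue, with open circles where the authors' table has no values and a dotted line at 5.9, the 95th percentile of undetected probes. Igf1, Igfals, Igfbp2 and Igfbp4 are brightest in liver, and Igf1r and Igfbp3 in kidney.

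Genes whose brightest probe followed the axis most closely were sought over the means of the 12 tissue and genotype groups among 13587 genes, as a description. Igf1 was most like C1s1 (Pearson r = 0.9965), Fn1 (0.9956) and Cxcl9 (0.9953). C1s1 and Fn1 encode secreted proteins made in liver, a complement protease and fibronectin. Ghr was most like Etfa (0.9945), C1galt1 (0.9938) and Bckdha (0.9937), of which Etfa and Bckdha encode mitochondrial enzymes of fat and amino acid breakdown. Igfals was most like Naprt (0.9988), Sephs2 (0.9985) and Cldn1 (0.9968). These groups share tissues and pools, so the values chiefly describe tissue levels.

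Partners of the axis were read from fixed lists. Of 24 liver probes for GH receptor signalling, 0 were higher and 2 lower in XO: Socs6, an adaptor-like relative of Socs2 (-0.52, SE 0.11, limma adjusted p = 0.0323), and Stat3, a transcription factor activated by cytokine receptors (-0.30, SE 0.078, adjusted p = 0.0466). Socs6 read 6.70, 6.58 and 6.92 in XmO and 7.09, 6.63 and 6.61 in XpO, against 7.15, 7.41 and 7.25 in XX, with no overlap. Stat3 read 10.77, 10.58 and 10.87 in XmO and 10.67, 10.73 and 10.66 in XpO, against 10.90, 11.02 and 11.11 in XX, also with no overlap, and its other probe did not pass. The kinase Jak2 gave 0.10 and 0.063 with its 2 probes (adjusted p = 0.496 and 0.627) and Stat5a gave 0.18 (adjusted p = 0.297). These 2 calls stand beside 5.7% of all liver probes called, and the median of the list was -0.10, compared with 0.0053 for all probes.

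Of 24 liver probes for IGF and insulin receptor signalling, where 5.7% of all probes were called, 0 were higher and 1 lower in XO: Grb14, an adaptor that binds and inhibits the insulin receptor, with 7.67, 7.70 and 7.56 in XmO and 7.63, 7.56 and 7.66 in XpO, against 7.92, 7.80 and 8.12 in XX (-0.32, SE 0.077, limma adjusted p = 0.0376). Its other 2 probes did not pass. With median scaling neither Stat3 (-0.16, adjusted p = 0.266) nor this Grb14 probe (-0.28, adjusted p = 0.073) passed, while Socs6 did (-0.39, adjusted p = 0.0293). Leaving out 1 pool at a time, the Stat3 call was lost in 9 of 9 fits (adjusted p = 0.0513 to 0.18), the Grb14 call in all but that without XX pool 2 (up to 0.16) and the Socs6 call in 6 of 9 (up to 0.111), among them each fit without an XX pool. The further binding proteins and their proteases had 0 of 8 probes past the threshold, with Igfbp1 at -0.43 (adjusted p = 0.434) and Igfbp5 at -0.18 and -0.43 (adjusted p = 0.434 and 0.0851). The ligands had 0 of 2 and the further receptors 0 of 4. In kidney, muscle and brain no probe of these 5 lists passed in limma. At an unadjusted p under 0.05 the GH receptor signalling list had 7 of 23 in kidney (3006 of 23417 for all probes), 3 of 25 in muscle (3381 of 21810) and 0 of 23 in brain (667 of 24863).

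Liver genes that respond to the sex pattern of GH release were also read, since pulses of GH in male rodents and steadier levels in females set sex-biased liver expression through STAT5B. Of 19 probes for male-biased genes 2 were higher in XO and 0 lower, in a tissue where 5.7% of all probes were called, 584 higher and 549 lower. Serpina1e, an alpha-1-antitrypsin family member with near-identical copies that a probe may also read, had 9.79, 9.66 and 9.80 in XmO and 9.73, 9.48 and 9.69 in XpO, against 8.91, 9.29 and 9.14 in XX (0.58, SE 0.095, limma adjusted p = 0.0179). Cyp7b1, an oxysterol hydroxylase, had 13.34, 12.52 and 12.84 in XmO and 12.93, 12.78 and 12.92 in XpO, against 12.63, 12.20 and 12.13 in XX (0.57, SE 0.15, adjusted p = 0.0492), with overlap. Hsd3b5 (0.27), Elovl3 (-0.071) and Cyp2d9 (-0.45) had adjusted p-values of 0.392, 0.731 and 0.324. Of 19 probes for female-biased genes 0 passed, with 5 at an unadjusted p under 0.05 (5219 of 19878 for all liver probes), and Cyp2b9 was at 0.22 (adjusted p = 0.13). The medians of these lists were 0.020 and -0.039. The Serpina1e call was lost without XX pool 3 (adjusted p = 0.0797), and the Cyp7b1 call without any pool but XmO pool 2 (up to 0.193). With the authors' values Cyp7b1 was at 0.65 (adjusted p = 0.0623).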

How the data were processed

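RNA of pooled tissue was labelled and hybridised, and the authors summarised the beads in BeadStudio, so the deposited intensities are linear bead signals before normalisation. A second deposited table holds values that the authors normalised by quantiles with lumi on a log2 scale, blank where a probe was not counted as detected in a tissue. The intensities carry decimal commas and were read as such.

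Here a floor of 1 was applied to the intensities, and quantile normalisation of their log2 values ran across the 35 arrays kept, without background correction. XO pools were compared with XX pools within a tissue in limma 3.58.1 (R 4.3.3, two-sided moderated test, Benjamini-Hochberg adjustment over all probes with authors' values in the tissue, threshold 0.05). XmO and XpO were compared in a fit with 3 genotypes, the liver effect with other tissues on differences within a pool, and tissues with the 9 pools as a block. Replicates are pools of mice, and their number, 2 to 6 a group, limits the precision. With 7 XX mice stated and XX pool sizes adding up to 8, it cannot be told whether an XX mouse entered more than 1 pool. Probes of a gene were kept apart. Of the authors' probes 21014 carried 1 gene symbol, 6 several and 7865 none. The fit was tested on simulated data with independent noise for each probe and pool. Such data hold no effects shared by the probes of a pool, so the test does not cover these. Alternatives covered the authors' values, scaling, background correction (normexp, offset 50), the filter on dim probes, the kind of XO pool, a replicate block and leaving out each pool. Not each was run for every comparison, and XmO against XpO was not run with median scaling. Detection p-values were not used here. Tables and figures used Python 3.11.15 with pandas 2.3.3, numpy 2.4.6, scipy 1.17.1 and matplotlib 3.10.9.

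The genes of the axis and all lists were chosen with earlier results of these data known. Named genes are all probes of the axis, up to 6 genes of a list past the threshold in a tissue, up to 3 defining genes of a list, the 3 genes most alike to Igf1, Ghr and Igfals, and Xist. By this rule Pomc of the pituitary markers also passed, higher in XO liver (0.37, limma adjusted p = 0.0369, lost in 7 of 9 fits with 1 pool left out). With the authors' values it was at 0.11 and did not pass (limma adjusted p = 0.0655). The 5 pituitary probes together summed to 331 to 348 in XmO liver, 323 to 348 in XpO and 305 to 320 in XX, a low signal. Clic6 of the choroid plexus markers passed as well, lower in XO kidney (-0.75 to -0.68 with 1 pool left out). Calls took 5.7% of all liver and 0.047% of all kidney probes.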

Additional observations from a re-analysis of the deposited data

Results flagged for a closer look

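Igf1r, the IGF1 receptor, read 8.61 with probe ILMN_1249824 in brain of XmO pool 1, apart from the other 5 XO pools, which read 8.93 to 9.10. The gap took 0.657 of the range of the 6 pools, more than Dixon's 95% value allows. It was the only such case in 44 sets of XO pools searched, where chance alone gives some.

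The difference of Ghr between XO and XX pools (probe ILMN_1253504) was set against itself in liver and muscle. The liver effect was lower by -0.57 in limma (adjusted p = 0.0284, and 0.0797 with median scaling), and leaving out 1 pool at a time gave -0.65 to -0.50 with adjusted p-values of 0.0196 to 0.106. The summed adipocyte signal ranked the 8 muscle pools as Ghr did, at 7121 to 11303 in XmO, 3824 to 6656 in XpO and 3265 to 5594 in XX, and its part in the difference was not tested.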

How the results depend on the processing

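Counts of probes past the threshold moved by over 1.5 times under these alternatives. XO against XX in liver (1133) gave 2 with XpO pools alone, 352 with XmO pools alone and 658 of 10590 genes with the mean of a gene's probes. In kidney (11) XmO pools alone gave 38. In muscle (2) the authors' values gave 7, median scaling 671 (94.5% higher in XO, against 0%), all probes unfiltered 10, XpO pools alone 11 and XmO pools alone 24. In brain (1) either kind of XO pool alone gave 2. XmO against XpO in liver (10) gave 5 with the authors' values, 16 with normexp and 19 unfiltered, in kidney (21) 35 unfiltered, in muscle (3) 6 with quantiles within the tissue and 9 unfiltered, and in brain (4) 1 without XX pool 3 and XmO pool 2 together. The liver effect against that in kidney (13) gave 1 with the authors' values and 581 with median scaling, and against brain (0) 1 and 421. Brain without those 2 pools, and median scaling of the comparisons between tissues, were chosen after seeing the data.

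Leaving out 1 pool at a time, counts ran from 5 (without XX pool 3) to 860 in liver, 5 to 184 (without XX pool 1) in kidney and 1 to 36 (without XX pool 3) in muscle for XO against XX. They ran from 3 to 15, 6 to 39, 2 to 6 and 1 to 5 for XmO against XpO in liver, kidney, muscle and brain. The liver effect against kidney gave 0 to 65, and against muscle 85 to 1390.

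Among the probes run under the alternatives, signs turned for differences of XO minus XX that did not pass. In liver these were Igf1 (0.16), Igfals (0.16) and Igfbp2 (0.12) with median scaling, Igf1 (0.068) and Igfals (0.077) with XpO pools alone and Igfbp2 (0.067) with XmO pools alone. Ghr probe ILMN_1247348 turned in kidney with the mean of both probes (-0.016), and in muscle with that mean (0.058) and with median scaling (0.083). Leaving out 1 pool gave -0.15 to 0.0092 for this probe in muscle, -0.12 to 0.033 for Igfbp2 in liver and -0.038 to 0.089 for Igfbp4 probe ILMN_1239075 in liver. The cause was not tested.

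With the pool number as a replicate block, counts were 439 in liver and 1 in muscle for XO against XX, and 12 in muscle and 1 in brain for XmO against XpO, and Ghr in liver had an adjusted p of 0.0461. Deviations of same-numbered pools of different genotypes were correlated over 0.1 for few pairs. The counts were 1 of 9 liver pairs, 2 of 9 kidney pairs, 1 of 9 brain pairs and 0 of 7 muscle pairs. Their median correlation was 0.035 for liver and 0.044 for muscle, against -0.0105 and -0.0245 for different-numbered pairs. For kidney and brain it was 0.007 and -0.016, against -0.035 and -0.0305. A genotype had few pools, whose deviations from their mean cancel, so this check cannot tell whether the numbers pair pools.

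For single probes, 433 values under other settings kept direction and side of the threshold, 43 lost the call, 5 gained it and 9 turned sign. With 1 pool left out at a time, 478 kept both, 82 lost the call, 1 gained it and 5 turned sign. A result that did not pass could not lose a call, and many of the values kept are of that kind. Not every probe was run. For XO against XX all axis probes were run in liver, but elsewhere only those of Ghr and Igf1 or with a small unadjusted p. For XmO against XpO only probes without overlap or with an unadjusted p under 0.05 in limma were run. Between tissues only the latter were. Called probes of the lists were run as well. Small differences outside liver were thus mostly left out of these counts. The order of tissues was kept for 12 of 12 probes with normexp and for 9 of 12 with the authors' values and with median scaling, the exceptions in both being Ghr probe ILMN_1247348, Igf1r probe ILMN_1217763 and Socs2. A block for the chip was not run, since the tables used here name no chip. The number of pools limits what these arrays can show, and signals near 5.9 are barely above undetected probes.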
